A study of Mus musculus with 12 samples.

Results

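NRF2, encoded by Nfe2l2, and 9 genes classically described as its targets were followed in the brain and the liver of aged mice after periodic heat stress. The members were taken by symbol from the deposited count table, and all 10 (Nfe2l2, Nqo1, Hmox1, Gclc, Gclm, Srxn1, Txnrd1, Gsr, Slc7a11 and G6pdx) were found among its 25239 genes. Messenger RNA had been sequenced from male C57BL6/J wild type mice in 4 groups of 3 samples: control brain, heat stress brain, control liver and heat stress liver, 12 libraries in all. Each library came from a cut piece of frozen tissue, and the brain region is not given in the sources used here. Mice were 24 months old at the start of the exposure and were euthanized at 24 months and 16 days. Heat stress mice had spent 3 h daily over 15 days at 40 °C (tolerance 0.5 °C) and a humidity of 60% (tolerance 5%), whereas controls had no heat exposure. The question was whether the antioxidant programme under NRF2 differed between heat stress and control in either tissue.

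NRF2 is a transcription factor that the adaptor KEAP1 holds in the cytoplasm and delivers to a CUL3 ubiquitin ligase for destruction. Electrophiles and oxidants modify KEAP1, so NRF2 escapes, pairs with a small MAF protein in the nucleus and binds antioxidant response elements near its target genes. Because NRF2 is regulated mainly as a protein, its activity is commonly read from the mRNA of its targets rather than from its own mRNA. The targets make glutathione (Slc7a11, Gclc, Gclm), return glutathione and thioredoxin to their reduced forms (Gsr, Txnrd1) and repair overoxidized peroxiredoxins (Srxn1). They also supply NADPH (G6pdx), reduce quinones (Nqo1) and degrade heme (Hmox1). The pathway is known in the liver for drug detoxification, and in the brain it is known mainly from astrocytes.

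Total counts lay between 10466198 and 15609040 per library, and the members together held 0.0401% to 0.0438% of the counts in brain and 0.0662% to 0.0764% in liver. Tissue markers matched the labels: 8 hepatocyte genes summed to between 73498 and 116330 CPM (counts scaled to a library of 1e6) in liver and to at most 15.4 CPM in brain, and 6 neuronal genes to between 5272 and 7682 CPM in brain and 13.3 to 31.5 CPM in liver. Liver control replicate 1 and liver heat stress replicate 2 stood apart by skeletal muscle transcripts, which summed to 431 and 2432 CPM there and to between 1.21 and 7.49 CPM in the other liver libraries. Among the 14806 genes tested in brain, 10.0% rose with heat stress and 10.0% fell when the cutoff was an unadjusted p-value under 0.05. Beside these shares, all 8 striatal neuron markers were higher with heat stress at that cutoff. Their summed level was 371 to 662 CPM in control and 661 to 1427 CPM in heat stress. Choroid plexus markers were lower for 5 of 8 genes (95.6 to 175 CPM in control, 36.1 to 76.1 CPM in heat stress), and endothelial markers for 4 of 5 (167 to 268 CPM in control, 117 to 153 CPM in heat stress). The part of these shifts in the results below was not tested, and in whole tissue a lower number of cells cannot be told apart from less RNA per cell.

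The levels from which heat stress started differed strongly between the tissues. In control mice, 7 of the 10 members were higher in liver than in brain, 2 were lower in liver, and Srxn1 was not called. A member was called here when edgeR's adjusted p-value was under 0.05 and the log2 fold change was past 1 in either direction. Among all genes tested, 27.5% were called higher in liver and 37.2% higher in brain. To compare genes with each other, CPM scaled across all 12 libraries was divided by the length of each gene's merged exons in kilobases.

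Gclc (chr9:77754535-77794485, plus strand, GRCm38 here and below), the catalytic subunit of the enzyme that limits glutathione synthesis, had the highest level per kilobase of all members in liver (91.2, 80.7 and 85.9 CPM per kilobase in the 3 controls) against 9.84, 10.3 and 10.3 in brain. Its difference was a log2 fold change of 3.08 ± 0.18 (SE; adjusted p = 1.9e-09, edgeR), or 8.47-fold. Gclm, the modifier subunit that pairs with Gclc (chr3:122245557-122270732, plus strand), was 7.66-fold higher in liver, so that the ratio of Gclc to Gclm per kilobase was nearly the same in both tissues: 3.09 ± 0.16 in control brain and 3.42 ± 0.29 in control liver (SD, n = 3). With heat stress the ratio was 3.34 ± 0.33 in brain and 3.27 ± 0.26 in liver, and control and heat stress ranges overlapped in both. The 2 subunit mRNAs thus stood in a similar proportion at levels that differed several-fold between the tissues.

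Nfe2l2 itself (chr2:75675513-75704641, minus strand) was 6.68-fold higher in control liver than in control brain, by 2.74 ± 0.18 on the log2 scale (SE; adjusted p = 8.2e-09, edgeR). Gsr, which reduces oxidized glutathione, was 6.2-fold higher, Hmox1, the inducible heme oxygenase (chr8:75093621-75100589, plus strand), 5.6-fold, Txnrd1, the cytosolic thioredoxin reductase, 4.91-fold, and Nqo1, a quinone reductase (chr8:107388225-107403206, minus strand), 2.95-fold. Hmox1 was also set against Hmox2, the constitutive heme oxygenase. The ratio of Hmox1 to Hmox2 per kilobase was 0.0819 ± 0.0113 in control brain and 0.432 ± 0.133 in control liver (SD, n = 3), and Hmox2 was the more abundant mRNA of the pair in every control library.

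Slc7a11 (chr3:49892526-50443614, minus strand), the cystine transporter subunit of system xc-, ran the other way. It had 938, 889 and 777 counts in the 3 control brains, but 19, 0 and 0 counts in the control livers and 1, 1 and 0 in the heat stress livers. A count of 0 allows up to 2.48e-05% of the counts in liver control replicate 2 and 2.87e-05% in replicate 3, by counting error alone. The fitted difference was a log2 fold change of -6.01 ± 0.63 (SE; adjusted p = 1.1e-06, edgeR), and it rests on the 19 counts of control replicate 1. That library also had the highest sums of liver for neuronal (31.5 CPM, 13.3 to 18.5 in the others) and oligodendrocyte markers (48.1 CPM, 14.0 to 21.7 in the others); their part in the Slc7a11 counts was not tested. Without replicate 1, both remaining control livers were at 0. Against a floor of 3 counts per library, which covers counting error only, Slc7a11 was at least 261-fold higher in the remaining control brains. With replicate 1 the fitted fold was smaller, so this bound applies to control replicates 2 and 3 only.

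G6pdx (chrX:74409483-74429194, minus strand), glucose-6-phosphate dehydrogenase and the entry enzyme of the pentose phosphate pathway, was also higher in brain. It had 8.68, 8.18 and 9.84 CPM per kilobase in control brain against 2.14, 1.34 and 1.29 in control liver. The log2 fold change was -2.47 ± 0.23 (SE; adjusted p = 2.2e-07, edgeR). Srxn1 (chr2:152105516-152111376, plus strand), sulfiredoxin, which repairs overoxidized peroxiredoxins, was the member not called between the tissues. Its levels were 25.6, 25.5 and 25.7 CPM per kilobase in control brain and 31.6, 24.5 and 23.7 in control liver. The log2 difference was 0.05 with a 95% interval from -0.26 to 0.37 (adjusted p = 0.743, edgeR), and its sign turned with DESeq2 or another scaling.

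The order of the members per kilobase of merged exons differed accordingly. It applies to that length: Txnrd1 has 7086 merged bases and 3622 in its longest transcript, against 2754 and 2673 for Gsr. In control brain Srxn1 led, followed by Gclc, G6pdx, Gsr and Txnrd1 with ranges apart. The ranges of Nfe2l2 (3.99 CPM per kilobase on average), Nqo1 (3.50), Slc7a11 (3.35) and Gclm (3.29) overlapped between neighbours, and Hmox1 came last with 1.93. In control liver Gclc was followed by Gsr, and then Txnrd1 (27.8), Nfe2l2 (26.7), Srxn1 (26.6) and Gclm (25.2), whose ranges overlapped between neighbours. Hmox1 (10.8) and Nqo1 (10.3) overlapped as well, with G6pdx (1.59) and Slc7a11 (0.0469) at the end. The 9 called tissue differences had absolute log2 fold changes from 1.56 (Nqo1) upwards, whereas no tested member passed 0.50 with heat stress in either tissue.

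**Figure D1:**
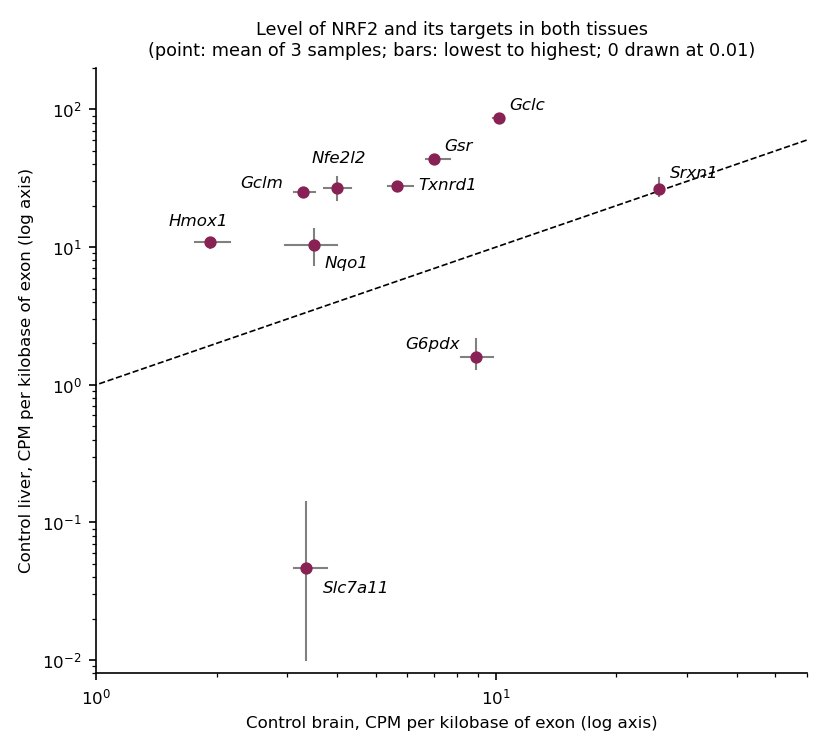
Level of each member in control liver (vertical) against control brain (horizontal), in CPM per kilobase of exon on log axes, with the mean of 3 samples as a point, bars from the lowest to the highest sample and a dashed line of equal levels. Of the 10 genes, 7 lie above the line, Srxn1 lies on it at about 26 in both tissues, and G6pdx and Slc7a11 lie below it.

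Promoter sequences are shown for 4 members that stand for the tissue patterns: Srxn1 with nearly equal levels, Gclm higher in liver, and G6pdx and Slc7a11 higher in brain. They come from RefSeq (GRCm38.p6, 250 bases before to 50 after the start site), which held 9 promoters of 7 members; Hmox1, Gclc and Gsr had none. Capitals mark matches, on either strand, to an antioxidant response element core (TGACNNNGC), to the AP-1 type element that NRF2 and BACH1 dimers also bind (TGAGTCA), or to the element of ATF4 with a C/EBP partner (TGATGNAA). The antioxidant and AP-1 type motifs can overlap within a longer element.

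Srxn1 (chr2:152105274-152105573, plus strand): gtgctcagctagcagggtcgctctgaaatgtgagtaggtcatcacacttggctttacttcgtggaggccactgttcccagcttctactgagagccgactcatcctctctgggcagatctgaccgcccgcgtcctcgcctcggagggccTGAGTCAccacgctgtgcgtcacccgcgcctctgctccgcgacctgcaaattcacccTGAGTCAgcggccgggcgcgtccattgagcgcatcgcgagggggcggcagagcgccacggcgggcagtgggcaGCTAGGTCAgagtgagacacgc
Gclm (chr3:122245307-122245606, plus strand): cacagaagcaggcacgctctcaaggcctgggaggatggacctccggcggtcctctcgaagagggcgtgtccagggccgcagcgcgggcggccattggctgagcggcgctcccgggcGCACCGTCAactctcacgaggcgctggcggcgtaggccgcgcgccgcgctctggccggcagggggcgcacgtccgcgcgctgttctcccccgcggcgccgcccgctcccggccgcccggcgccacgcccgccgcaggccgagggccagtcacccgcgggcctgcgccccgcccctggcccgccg
G6pdx (chrX:74428831-74429130, minus strand): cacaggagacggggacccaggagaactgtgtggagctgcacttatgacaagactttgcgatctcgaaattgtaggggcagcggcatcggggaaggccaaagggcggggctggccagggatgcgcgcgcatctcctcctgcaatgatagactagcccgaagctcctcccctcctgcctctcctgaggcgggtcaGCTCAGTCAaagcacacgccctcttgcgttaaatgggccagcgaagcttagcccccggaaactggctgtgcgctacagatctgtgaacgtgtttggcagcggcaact
Slc7a11 (chr3:50443564-50443863, minus strand): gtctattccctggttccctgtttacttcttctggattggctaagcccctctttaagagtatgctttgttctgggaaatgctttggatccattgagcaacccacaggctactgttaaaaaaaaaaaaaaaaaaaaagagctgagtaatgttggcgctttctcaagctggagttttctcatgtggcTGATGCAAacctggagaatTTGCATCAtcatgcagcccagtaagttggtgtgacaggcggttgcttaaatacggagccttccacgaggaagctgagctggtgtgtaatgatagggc

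The Srxn1 promoter held TGAGTCA at 2 positions, starting 102 and 45 bases before the start site, and TGACNNNGC starting 28 bases after it. TGACNNNGC also matched in Gclm, in G6pdx, in Nfe2l2 and in 1 of 3 Txnrd1 promoters, hence in 5 of the 9 member promoters, against 12.4% of all 32851 promoters of this length. TGAGTCA was found in 5.20% of all promoters and, among members, in Srxn1 only. Slc7a11 held TGATGNAA at 2 positions 66 and 47 bases before the start site, on opposite strands, against 3.97% of all promoters with any match. These matches are a description of the letters, and the known elements of Gclc, Nqo1 and Hmox1 lie further upstream than this window reaches.

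In brain, none of the 10 members passed edgeR's test at an adjusted p-value under 0.05, as was the case for all 14806 genes tested (0.0% called), and the smallest adjusted p of a member was 0.235. At an unadjusted p-value under 0.05, 1 member was higher and 0 were lower, against 10.0% of all genes higher and 10.0% lower. The heat effects of the members had a median log2 fold change of 0.05 (6 positive, 4 negative) beside -0.0030 for all genes, and the median ran from 0.0069 without control replicate 1 to 0.081 without control replicate 2. Their median absolute change was 0.13 against 0.21 for all genes. All 10 intervals lay within a log2 change of 1 in either direction, so a doubling or halving lay outside the 95% interval of each. DESeq2 called 540 genes, which is 4.66% of those it gave an adjusted p, and no member was among them or at an unadjusted p under 0.05.

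Nqo1 had the largest difference in brain. Its levels were 6.72, 9.16 and 7.93 CPM in control and 10.5, 12.3 and 9.44 CPM in heat stress brain, from 98 to 137 counts per library. Every heat stress library was above every control, as was the case for 12.9% of all genes. The log2 fold change was 0.44 ± 0.19 (SE; 95% interval 0.02 to 0.86; unadjusted p = 0.0418, adjusted p = 0.235, edgeR), or 35.7% higher. When library trends with gene length and GC were removed, it came to 0.19 (unadjusted p = 0.236, edgeR). Its unadjusted p was also above 0.05 without control replicate 1 or 3 or heat stress replicate 1 or 2 (log2 fold changes 0.33, 0.44, 0.45 and 0.33).

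Hmox1 was low in brain, at 4.52, 5.58 and 4.69 CPM in control and 5.91, 5.11 and 6.71 CPM in heat stress. The ranges overlapped, with a log2 fold change of 0.26 (95% interval -0.21 to 0.73; adjusted p = 0.496, edgeR), which was 0.16 without heat stress replicate 3 and 0.15 with the length and GC correction. Nfe2l2 had 21.7, 24.3 and 20.5 CPM in control and 17.6, 23.9 and 16.7 CPM in heat stress, where replicate 2 lay within the control range and the other two below it. Its log2 fold change was -0.19 (95% interval -0.55 to 0.17; adjusted p = 0.528, edgeR), and -0.37 without heat stress replicate 2 (unadjusted p = 0.0404, edgeR), against -0.09 without heat stress replicate 3, -0.12 without control replicate 2 and -0.31 with the length and GC correction.

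Among the genes of glutathione synthesis, Slc7a11 had the widest spread in brain. Its levels were 64.3, 77.6 and 62.9 CPM in control and 52.3, 101 and 61.0 CPM in heat stress. The highest value of each group came from replicate 2, which were also the libraries with the highest astrocyte marker sums of their groups (2848 and 2581 CPM, against 2085 to 2314 CPM in the other 4). In the astrocyte list 6 of 6 genes were tested and 1 was lower at an unadjusted p under 0.05; its part in the Slc7a11 spread was not tested. The log2 fold change was 0.07 (95% interval -0.44 to 0.57; adjusted p = 0.886, edgeR), and -0.27 without heat stress replicate 2.

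Gclc had 54.2, 56.9 and 56.5 CPM in control and 64.4, 56.2 and 63.4 CPM in heat stress brain, with 2 heat stress libraries above all controls and the third within their range. Its log2 fold change was 0.13 (95% interval -0.10 to 0.37). Gclm stayed between 28.4 and 33.8 CPM in all 6 libraries, with a log2 fold change of 0.03 (95% interval -0.24 to 0.29) whose sign turned without control replicate 1 or heat stress replicate 1 (-0.01 and -0.05). Gsr, which recycles glutathione, lay between 26.6 and 32.5 CPM, with a log2 fold change of 0.12 (95% interval -0.14 to 0.38) that ran from 0.07 without heat stress replicate 3 to 0.19 without control replicate 1.

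Srxn1 had 105.4, 106.1 and 105.2 CPM in control brain and 105.1, 93.5 and 94.9 CPM in heat stress. The groups did not overlap, as for 1774 of the 14806 genes in that direction, but replicate 1 of heat stress missed the control range by under 1 CPM. The log2 fold change was -0.11 (95% interval -0.33 to 0.12; adjusted p = 0.554, edgeR), and it was -0.17 without heat stress replicate 1 and -0.06 with the length and GC correction. Txnrd1 lay between 52.2 and 63.7 CPM with overlapping groups (log2 fold change -0.06, 95% interval -0.31 to 0.20; 0.01 without control replicate 3). G6pdx had 39.1, 37.1 and 44.0 CPM in control and 39.0, 33.4 and 30.4 CPM in heat stress, a log2 fold change of -0.22 (95% interval -0.52 to 0.07; adjusted p = 0.348, edgeR). Heat stress replicate 1 lay among the controls here, and without it the value was -0.33 (unadjusted p = 0.0428, edgeR), against -0.15 without control replicate 3 or heat stress replicate 3.

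**Figure D2:**
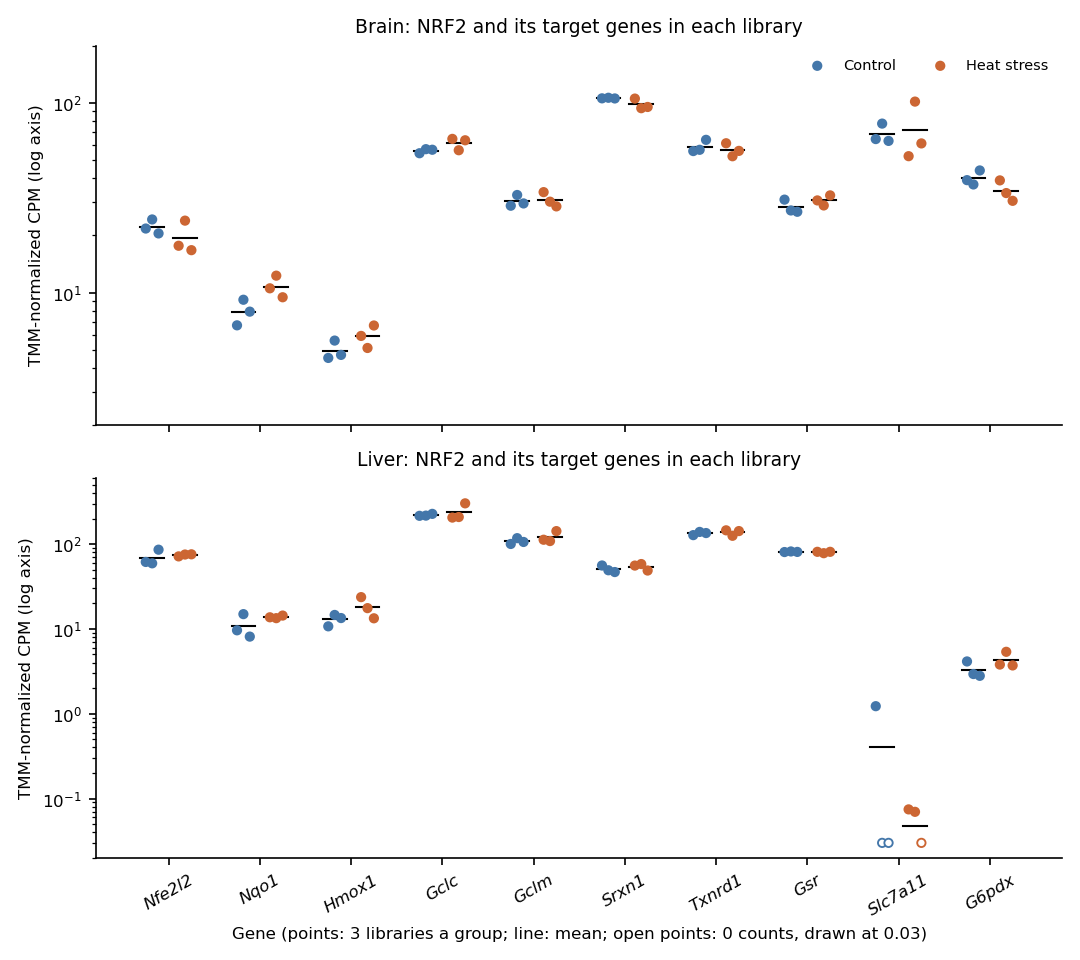
TMM-normalized CPM (log axis, scaled within each tissue) of the 10 members in each of the 6 brain libraries (top) and 6 liver libraries (bottom), with control in blue, heat stress in orange and the group mean as a line. The groups overlap for most genes; brain Nqo1 lies higher in all 3 heat stress libraries, and liver Slc7a11 lies at 0 in 3 of 6 libraries.

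In liver, 9 of the 10 members could be tested, since Slc7a11, with at most 1 count outside control replicate 1, did not pass the filter on low counts. Fits that kept it gave log2 fold changes of -3.11 (DESeq2, unadjusted p = 0.142), -3.16 (all 12 libraries, unadjusted p = 0.0556, edgeR) and -2.94 (no filter, unadjusted p = 0.0879, edgeR), which rest on the 19 counts of that library. None passed edgeR's test at an adjusted p-value under 0.05, as was the case for all 12296 genes tested (0.0% called), and none was at an unadjusted p under 0.05 in either direction, against 2.97% of all genes higher and 2.87% lower. The smallest adjusted p of a member was 0.877. Of the 9 members, 8 had a positive and 1 a negative log2 fold change, with a median of 0.12 beside 0.01 for all genes. Their median absolute change was 0.12 against 0.18 for all genes. No member had groups without overlap, which 5.38% of all genes had upwards and 5.73% downwards. DESeq2 called 63 genes (0.553% of those with an adjusted p), among them no member.

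Hmox1 had the largest log2 fold change of the members in liver, 0.50 ± 0.24 (SE; 95% interval -0.03 to 1.03; unadjusted p = 0.0627, edgeR). Its levels were 10.7, 14.6 and 13.4 CPM in control and 23.7, 17.6 and 13.3 CPM in heat stress liver. Heat stress replicates 1 and 2 lay above all controls and replicate 3 among them, so that the value was 0.25 without replicate 1 and 0.66 without replicate 3 (unadjusted p = 0.0227, edgeR). Hmox1 is strongly expressed in macrophages that take up red cells, and the summed Kupffer cell markers were also highest in heat stress replicate 1 (363 CPM, against 199 and 220 CPM in the other heat stress livers and 146 to 250 CPM in control). Of the 9 Kupffer markers, none at 0 in every library, all 9 had a positive log2 fold change and 1 an unadjusted p under 0.05; their part in the Hmox1 values was not tested.

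Nqo1 had 9.62, 14.9 and 8.11 CPM in control and 13.7, 13.4 and 14.4 CPM in heat stress liver. The heat stress livers were close together while control replicate 2 was the highest of the 6. The log2 fold change was 0.34 (95% interval -0.19 to 0.87; adjusted p = 0.936, edgeR), and 0.64 without control replicate 2 (unadjusted p = 0.0185, edgeR) or 0.17 without control replicate 3. G6pdx was low in liver, from 30 to 77 counts, with 4.13, 2.94 and 2.80 CPM in control and 3.80, 5.37 and 3.71 CPM in heat stress. Its log2 fold change was 0.38 with the widest interval of the members tested (-0.25 to 1.00), and 0.18 without heat stress replicate 2 or 0.57 without control replicate 1.

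Gclc had 215, 216 and 227 CPM in control and 205, 208 and 302 CPM in heat stress liver, and Gclm 100.2, 117 and 106 CPM in control and 112, 109 and 142 CPM in heat stress. For both subunits heat stress replicate 3 was the highest of the 6 libraries. Their log2 fold changes were 0.12 (95% interval -0.33 to 0.57) and 0.17 (95% interval -0.23 to 0.57), and without heat stress replicate 3 they were -0.10 and 0.02. The same library had the highest sum of the 14 quinone and xenobiotic enzyme genes, 4369 CPM, against 3135 and 3190 CPM in the other heat stress livers and 2407 to 2572 CPM in control.

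The remaining members had log2 fold changes of at most 0.11 in liver. Gsr had the least spread of all, at 80.5, 81.8 and 80.8 CPM in control and 81.0, 78.1 and 81.0 CPM in heat stress (log2 fold change -0.02, 95% interval -0.36 to 0.32). Txnrd1 lay between 125 and 145 CPM (0.04, 95% interval -0.33 to 0.41), with a sign that turned without control replicate 1 or heat stress replicate 1 (-0.01 and -0.02). Srxn1 lay between 46.8 and 58.1 CPM (0.10, 95% interval -0.27 to 0.47), with values from 0.04 without control replicate 3 to 0.17 without control replicate 1, and 0.0062 with the length and GC correction. Nfe2l2 had 61.5, 59.3 and 85.8 CPM in control and 71.5, 75.3 and 75.7 CPM in heat stress (0.11, 95% interval -0.31 to 0.53), where control replicate 3 was the highest of the 6; without it the value was 0.29, and without control replicate 1 or 2 it was 0.02 and 0.01.

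Leaving out both liver libraries with muscle transcripts gave log2 fold changes of 0.39 for Hmox1, 0.27 for Nqo1, 0.18 for Gclc and Gclm and 0.01 for Nfe2l2, and none had an unadjusted p under 0.05 (edgeR). In the column names, liver control replicate 2 and heat stress replicates 1 and 3 carry the suffix 2nd, whose meaning is not given in the sources used here. With that suffix as a covariate, Hmox1 was at 0.44, Nqo1 at 0.25 and G6pdx at 0.49, again with no unadjusted p under 0.05 (edgeR).

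**Figure D3:**
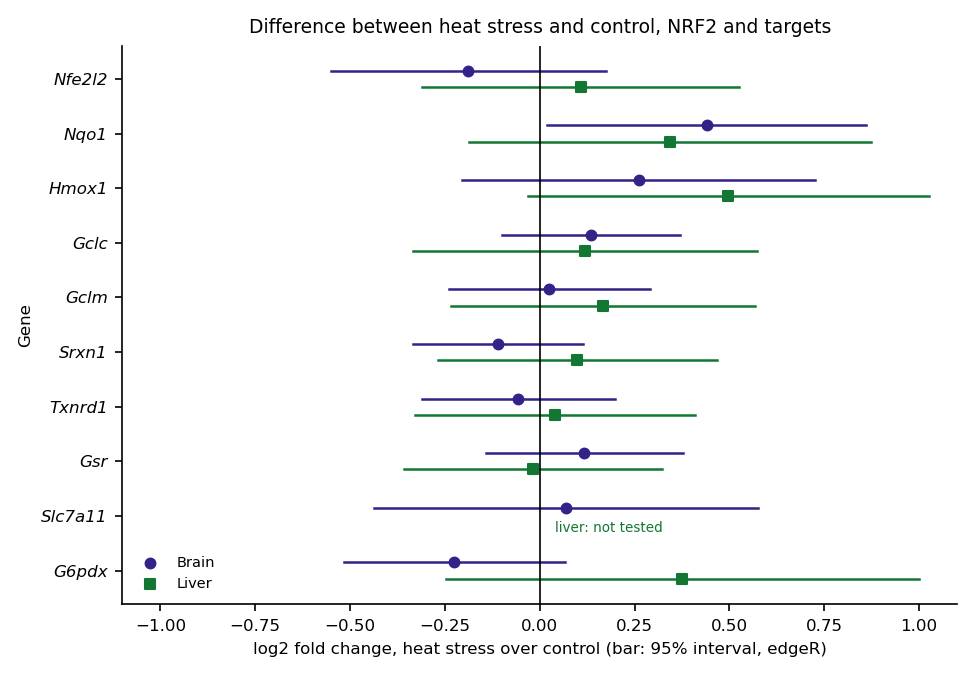
Log2 fold change of heat stress over control for each member in brain (circles) and liver (squares), with the 95% interval from edgeR as a bar. Only the interval of brain Nqo1 leaves out 0 (0.02 to 0.86), and Slc7a11 was left out by the count filter in liver.

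Whether the tissues differed in their response was tested as a difference of the log2 fold changes, liver minus brain, in a single fit of the 4 groups. No member was called by edgeR (1 of 15824 genes was, or 0.00632%) and none had an unadjusted p-value under 0.05, which 9.64% of all genes had. DESeq2 called no member either. G6pdx, with a negative value in brain and a positive one in liver, differed by 0.58 (95% interval -0.10 to 1.25; unadjusted p = 0.0878, adjusted p = 0.553, edgeR), and the value was 1.07 without replicate 1 (unadjusted p = 0.00912, edgeR) and 0.25 without replicate 2. Slc7a11 had the largest fitted difference, -3.22 (95% interval -6.61 to 0.17; adjusted p = 0.522, edgeR). That value rests on the 19 counts of liver control replicate 1, and it was 2.50 without replicate 1 and -3.92 without replicate 2 (unadjusted p = 0.0391, edgeR). For the other 8 members the difference lay between -0.15 (Gsr) and 0.29 (Nfe2l2). Hmox1 differed by 0.23, or 0.00020 without replicate 1 and 0.55 without replicate 3, and Srxn1 by 0.19, or 0.0042 without replicate 2 and 0.38 without replicate 1.

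The regulators of NRF2 were examined next. In brain, 16 of 17 listed genes were tested, 0 higher and 2 lower at an unadjusted p under 0.05, and in liver 16 of 17 with 1 higher and 0 lower; none was called by edgeR. The shares of all genes were 10.0% in each direction in brain, and 2.97% higher and 2.87% lower in liver. The brain counts ran from 0 to 1 higher and from 1 to 2 lower without single libraries, and the liver counts were 2 higher and 1 lower without control replicate 1, 3 and 0 without control replicate 3, and 1 and 1 without both muscle libraries. The lower 2 in brain were Bach2 and Syvn1 (-0.53, and -0.33 with the length and GC correction), a ubiquitin ligase of the endoplasmic reticulum that also degrades NRF2, named after its values were seen. Keap1, the sensor, had 72.5, 77.9 and 75.9 CPM in control and 85.1, 77.7 and 87.5 CPM in heat stress brain (log2 fold change 0.15, adjusted p = 0.437, edgeR; 0.32 with the length and GC correction, unadjusted p = 0.0134). In liver its log2 fold change was -0.05, and 63.1 CPM in control replicate 1 exceeded the 36.9 to 49.1 CPM of the other libraries; without it the value was 0.20. Cul3, the ligase scaffold, had log2 fold changes of 0.14 in brain, where it was -0.07 with the length and GC correction, and 0.15 in liver, where it was 0.04 without control replicate 1. Sqstm1, encoding p62, which competes with NRF2 for KEAP1, had -0.17 in brain (-0.06 without control replicate 1) and 0.06 in liver. Its liver value was 0.26 without control replicate 1, 0.24 without both muscle libraries, -0.03 without control replicate 2 and -0.04 without control replicate 3, and it was also below 0 without heat stress replicate 3 and with the length and GC correction (-0.01 and -0.03). Nfe2l1, the NRF2 relative that drives proteasome genes, had -0.16 in brain, with 337 to 352 CPM in heat stress below the 370 to 416 CPM of control, and 0.05 with the length and GC correction. In liver it had -0.07, with the 2 muscle libraries highest at 104 CPM (control replicate 1) and 101 CPM (heat stress replicate 2). Without the first the value was 0.22, without the second -0.38, and without both -0.10.

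The small MAF and BACH genes encode the partners and the repressors of NRF2 at the same elements. Mafk had 11.0, 7.75 and 9.60 CPM in control and 14.9, 16.8 and 14.7 CPM in heat stress liver. All heat stress livers were above all controls, with a log2 fold change of 0.71 ± 0.20 (SE; unadjusted p = 0.00485, adjusted p = 0.486, edgeR). It was 0.76 without the libraries with muscle transcripts and 0.59 with the length and GC correction, whereas in brain Mafk had a log2 fold change of 0.02 whose sign turned without control replicate 1, control replicate 2 or heat stress replicate 1 (-0.01, -0.09 and -0.14). Maff in liver had 2.84, 2.12 and 12.7 CPM in control and 9.60, 12.7 and 31.2 CPM in heat stress (log2 fold change 1.63, adjusted p = 0.888, edgeR), and control replicate 3 lay within the heat stress range. Without it the value was 2.83 (unadjusted p = 0.00101, edgeR), and without heat stress replicate 3 it was 0.92. Mafg had log2 fold changes of -0.14 in brain and -0.21 in liver. The brain value was 0.08 with the length and GC correction and -0.07 without heat stress replicate 1. The liver value was -0.11 without control replicate 1.

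Bach1, which represses Hmox1 until heme displaces it, had 24.5, 26.8 and 38.1 CPM in control and 44.9, 37.5 and 36.3 CPM in heat stress liver (log2 fold change 0.41, unadjusted p = 0.0730, adjusted p = 0.888, edgeR). Heat stress replicate 1 was the highest of the 6 for Bach1 as it was for Hmox1. Without control replicate 3 the value was 0.62 (unadjusted p = 0.0134, edgeR), and without control replicate 1 it was 0.27. In brain Bach1 had a log2 fold change of 0.05, whose sign turned without control replicate 1 or heat stress replicate 1 (-0.02 and -0.01). The brain value was 0.15 with the length and GC correction and also without heat stress replicate 3. Bach2, its lymphoid and neuronal relative, had 9.32, 9.42 and 13.3 CPM in control and 7.11, 6.81 and 8.31 CPM in heat stress brain. The groups did not overlap, with a log2 fold change of -0.53 ± 0.20 (SE, unadjusted p = 0.0261, adjusted p = 0.205, edgeR). It was -0.39 with the length and GC correction (unadjusted p = 0.0588, edgeR) and -0.34 without control replicate 3 (unadjusted p = 0.116, edgeR). The unadjusted p was also above 0.05 without heat stress replicate 1 or 2 (log2 fold changes -0.50 and -0.47). In liver Bach2 had -0.52 with overlapping groups, and -0.84 without the muscle libraries (unadjusted p = 0.0203, edgeR).

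Beyond the 10 members, 64 genes of 5 lists that share the pathway's functions were counted. In the full comparison, the shares of all genes to read these and the list counts against are 10.0% higher and 10.0% lower in brain, and 2.97% and 2.87% in liver. Counts from another setting belong beside the counts over all genes in that setting. Of the 64 genes, 52 were tested in brain. At an unadjusted p under 0.05, 9 (17.3%) were higher and 2 (3.85%) lower, with a median log2 fold change of 0.09. None was called by edgeR. DESeq2 called 2 of the 61 with an unadjusted p, beside 4.66% of all genes with an adjusted p. With the length and GC correction the counts were 6 and 3 of 51 tested, beside 909 and 910 of 14535 genes, and the median was 0.0071. Without heat stress replicate 2 the counts were 2 and 2. They were 3 and 1 without control replicate 1, 14 and 4 without control replicate 2, and 3 and 2 without control replicate 3. The counts over all genes moved in these settings as well, from 1481 higher and 1488 lower to 909 and 910 with the correction, 729 and 936 without heat stress replicate 2, 769 and 886 without control replicate 1, 2042 and 1985 without control replicate 2, and 962 and 1213 without control replicate 3. The median of the list was 0.02 without heat stress replicate 2 and 0.17 without heat stress replicate 3. In liver 61 were tested, of which 5 (8.20%) were higher and 1 (1.64%) lower, with a median of 0.15. Of the higher genes, 4 were transferases described below, whose near-identical copies can share reads. None was called by edgeR. DESeq2 called 2 of the 63 with an unadjusted p, beside 0.553% of all genes with an adjusted p. Without liver control replicate 1 the counts were 12 and 0, and without both libraries with muscle transcripts 14 and 0. The counts over all genes were larger there too: 365 higher and 353 lower in the full comparison, 890 and 724 without control replicate 1, and 715 and 559 without both libraries. The median stayed positive in liver under every setting run, from 0.07 without heat stress replicate 3 to 0.20 without both muscle libraries. The median over all genes was -0.0065 and 0.0035 in these 2 settings. The settings drew on the same liver libraries, so they are not independent of each other.

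The glutathione list had 3 genes higher and 2 lower at an unadjusted p under 0.05 among 15 tested in brain. Gpx4, which reduces lipid peroxides in membranes, had 203, 313 and 252 CPM in control and 368, 457 and 348 CPM in heat stress brain. All heat stress libraries were above all controls (log2 fold change 0.61 ± 0.18 SE, adjusted p = 0.170, edgeR; adjusted p = 0.0293, DESeq2), and the value was 0.47 with the length and GC correction. Ggct, which acts in glutathione breakdown, had a log2 fold change of 0.35 and Abcc4, an exporter, -0.71, both with groups apart. The other two, named after their values were seen, were Gstp1 (0.28, but 0.06 with the length and GC correction) and Slc3a2 (-0.37, and -0.32 with it), the heavy chain that carries Slc7a11 to the cell surface, which was lower in all 3 heat stress brains while Slc7a11 itself overlapped. The counts were 1 and 1 without control replicate 1 or heat stress replicate 2, 2 and 1 without heat stress replicate 1, 2 and 2 without control replicate 3, 4 and 3 without control replicate 2, and 5 and 1 without heat stress replicate 3.

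In liver 4 of 19 glutathione genes were higher and 1 lower, and the 4 higher were transferases of the pi and mu classes, whose near-identical copies can share reads. Gstp1 had 673, 593 and 722 CPM in control and 1032, 958 and 1424 CPM in heat stress liver, a log2 fold change of 0.78 ± 0.22 (SE; adjusted p = 0.486, edgeR; adjusted p = 0.0413, DESeq2). Gstp2 had 6.26, 6.52 and 6.71 CPM in control and 13.8, 8.71 and 27.2 CPM in heat stress (log2 fold change 1.35, adjusted p = 0.465, edgeR). Gstm3 had a log2 fold change of 1.01 (adjusted p = 0.529, edgeR) and Gstm2 of 0.73 (adjusted p = 0.604, edgeR). Without both muscle libraries, which left 2 libraries against 2, edgeR called Gstp2 (log2 fold change 1.61, adjusted p = 0.0129), Gstm3 (0.93, adjusted p = 0.0313) and Gstm2 (1.06, adjusted p = 0.00735), and 0.662% of all genes. Gstm2 and the lower gene, Ggct (-0.57), were named after their values were seen. The counts were 6 and 0 without control replicate 1 or both muscle libraries (Ggct -0.36), and 4 and 0 without control replicate 2 or heat stress replicate 2 or 3.

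The thioredoxin and peroxiredoxin list had 2 of 11 genes higher and 0 lower in brain and 0 of 11 in either direction in liver. Prdx1, a peroxide-reducing peroxiredoxin, had 158, 258 and 217 CPM in control and 327, 379 and 264 CPM in heat stress brain. All heat stress libraries were above all controls (log2 fold change 0.62 ± 0.20 SE, adjusted p = 0.172, edgeR; adjusted p = 0.0426, DESeq2), and the value was 0.38 with the length and GC correction. Prdx3, its mitochondrial relative, had a log2 fold change of 0.37 and Txn1, thioredoxin itself, of 0.33, both with overlapping groups. With the length and GC correction they were at 0.08 and -0.00018 (unadjusted p = 0.419 and 0.999, edgeR). The brain count was 1 with that correction, 1 without control replicate 1 or 3 or heat stress replicate 1, 0 without heat stress replicate 2, 4 without control replicate 2 and 3 without heat stress replicate 3. The liver count was 1 higher without control replicate 3, with the replicate block and with all 12 libraries in 1 fit. In liver the smallest p-values belonged to Txnip, an inhibitor of thioredoxin (0.66), Prdx2 (0.18) and Prdx6 (0.14), whose groups overlapped. Without both muscle libraries Txnip was at 0.29 and Prdx2 at 0.28, and with the suffix covariate Prdx2 was at 0.04.

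The NADPH list had 1 of 9 genes higher and 0 lower in brain, Pgls, the second enzyme of the pentose phosphate pathway, at 17.4 to 19.2 CPM in control and 21.4 to 25.4 CPM in heat stress (log2 fold change 0.32, adjusted p = 0.210, edgeR). Idh1 had 0.34 and H6pd, the enzyme of the endoplasmic reticulum, -0.42, but 0.13 and -0.17 with the length and GC correction, while Pgls had 0.42. The brain count of higher genes was 0 without control replicate 1 or 3 or heat stress replicate 2. It was 2 without control replicate 2, where 1 gene was lower, and 2 without heat stress replicate 3. In liver 0 of 9 were higher or lower, with log2 fold changes of 0.38 for H6pd, 0.21 for Nnt and -0.25 for Idh1; without control replicate 1 or both muscle libraries 2 were higher, and H6pd was at 0.64 without the latter. G6pdx, counted with the members, had -0.22 in brain and 0.38 in liver.

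Of the quinone and xenobiotic enzymes, 1 of 8 was higher in brain and 1 of 13 in liver, with 0 lower in both. In brain it was Cbr3, a carbonyl reductase, with 8.57, 12 and 7.29 CPM in control and 11.5, 15.2 and 17.0 CPM in heat stress (log2 fold change 0.65, adjusted p = 0.183, edgeR). In liver it was Cyp2a5, a coumarin hydroxylase, with 892, 1142 and 1076 CPM in control and 1541, 1673 and 2491 CPM in heat stress. All heat stress livers were above all controls (log2 fold change 0.88 ± 0.24 SE, adjusted p = 0.465, edgeR; adjusted p = 0.0360, DESeq2). The brain count of higher genes was 0 without control replicate 3 or heat stress replicate 3 and 2 without heat stress replicate 1. In brain 1 gene was lower without heat stress replicate 2 or with the length and GC correction. The liver count was 3 without control replicate 1 or both muscle libraries. Ephx1, microsomal epoxide hydrolase, had -0.26 in brain (-0.36 with the length and GC correction, unadjusted p = 0.0143, edgeR). In liver Ephx1 had 0.36 (0.72 without the muscle libraries). Aox1 had -0.33 in brain and Ces1g 0.27 in liver (0.43 without the muscle libraries, unadjusted p = 0.0415, edgeR).

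Of the heme and iron genes, 2 of 9 were higher in brain and 0 of 9 in liver, and 8 of 9 had a positive log2 fold change in each tissue. Ftl1, the ferritin light chain, had 290, 410 and 310 CPM in control and 398, 566 and 421 CPM in heat stress brain (log2 fold change 0.46, adjusted p = 0.222, edgeR; 0.29 with the length and GC correction). In liver it had 3871, 5805 and 4219 CPM in control and 7732, 4554 and 7439 CPM in heat stress (0.51, adjusted p = 0.908, edgeR; 0.28 with the suffix covariate), with heat stress replicate 2 among the controls. Blvra, which turns the biliverdin made by heme oxygenase into bilirubin, had 0.35 in brain with groups apart, and 0.05 with the length and GC correction (unadjusted p = 0.739, edgeR). Hmox2 had 73.7 to 80.3 CPM in control and 87.6 to 88.3 CPM in heat stress brain (log2 fold change 0.20, adjusted p = 0.277, edgeR; 0.05 with the length and GC correction). In liver it had 0.34, and 0.57 without the muscle libraries (unadjusted p = 0.00810, edgeR). The brain count was 0 without control replicate 1 or 3 or heat stress replicate 2, 1 without heat stress replicate 1 or 3 or with the length and GC correction, and 3 without control replicate 2. The liver count was 1 without control replicate 1 or 2 or heat stress replicate 2, and 3 without both muscle libraries. Slc40a1, the iron exporter ferroportin, had 0.29 in liver (0.15 with the suffix covariate).

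**Figure D4:**
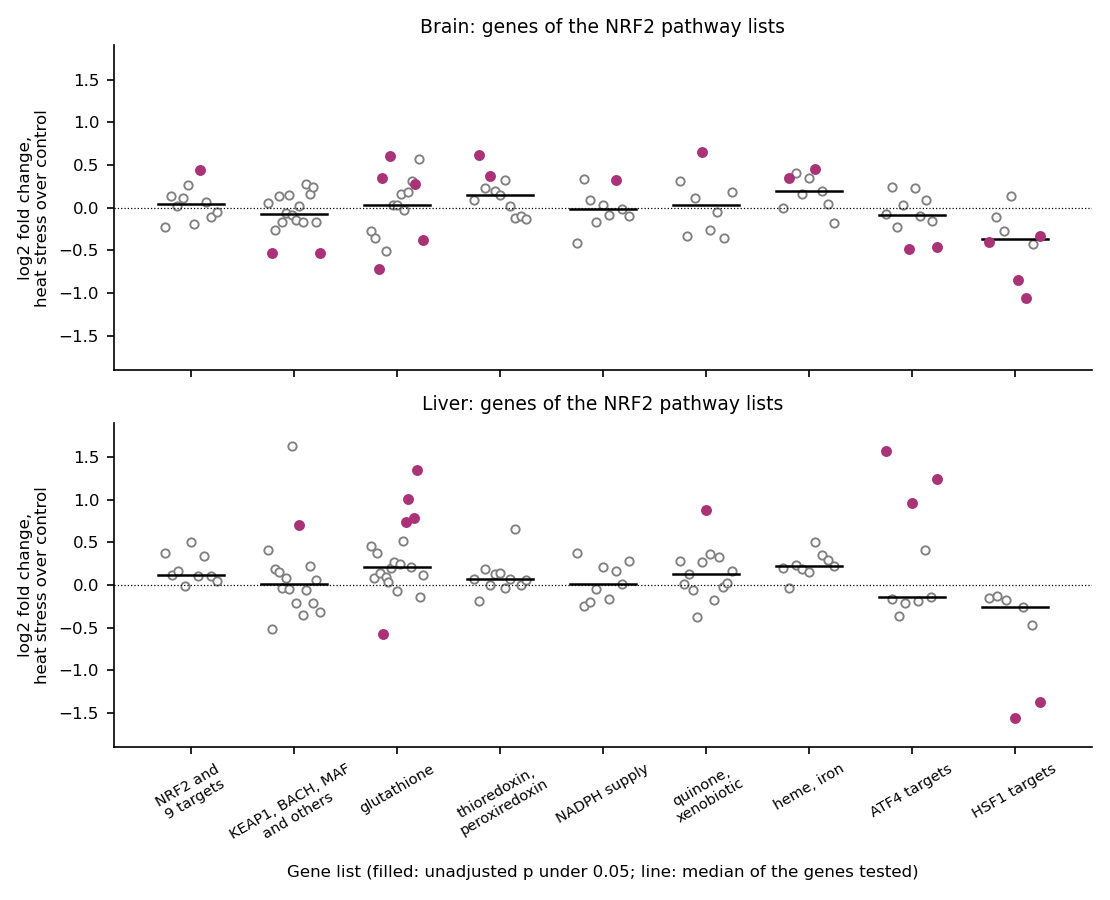
Log2 fold change of heat stress over control for every tested gene of the members and the 8 other lists in brain (top) and liver (bottom), filled where the unadjusted p-value from edgeR was under 0.05, with a line at the median of each list. The members' medians lie at 0.05 and 0.12; filled points lie on both sides of 0 in brain, and in liver the lowest 2 are Hsp90aa1 (-1.56) and Hsph1 (-1.37).

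Because Slc7a11 is also a target of ATF4 and Hmox1 also a target of HSF1, those programmes were set beside the members. Atf4 itself had log2 fold changes of -0.23 in brain and -0.37 in liver. In brain it was -0.15 without control replicate 1, and -0.31 without control replicate 2 (unadjusted p = 0.0353, edgeR). In liver it was -0.51 with the suffix covariate and -0.49 with the length and GC correction (unadjusted p = 0.00964 and 0.0275, edgeR). It was -0.23 in liver without control replicate 2 or heat stress replicate 2. Of Atf4 and its targets in liver, 3 of 9 genes tested were higher and 0 lower. The higher genes were Trib3, Asns and Chac1. The liver counts were 3 and 1 with the suffix covariate, the length and GC correction or all 12 libraries in 1 fit. They were 2 and 0 without control replicate 1 or 2 or heat stress replicate 1. Trib3, a pseudokinase, had 7.62, 7.26 and 5.03 CPM in control and 12.6, 14.9 and 19.9 CPM in heat stress (log2 fold change 1.24 ± 0.24 SE, adjusted p = 0.251, edgeR; adjusted p = 0.00958, DESeq2). Asns, asparagine synthetase, had a log2 fold change of 1.57 and Chac1, which degrades glutathione, of 0.96, and Chac1 reached at most 2.68 CPM in a liver library. Without both muscle libraries edgeR called Trib3 (1.38, adjusted p = 0.0184) and Asns (1.70, adjusted p = 0.0287).

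In brain the same list ran with 0 higher and 2 lower of 10, Chac1 (-0.48) and Slc7a5 (-0.46, and -0.29 with the length and GC correction), and Ddit3 had 0.23. The count was 0 without control replicate 1 or heat stress replicate 2 or 3, 1 without control replicate 3 or heat stress replicate 1, and 3 without control replicate 2. Slc7a11 had 0.07 in brain, beside these. Of the HSF1 list, 0 of 8 genes were higher and 4 lower in brain (10.0% of all genes in each direction), Hspa1a (-0.85) and Hspa1b (-1.06), which are near-identical copies, Hsph1 (-0.33) and Bag3 (-0.40), a co-chaperone named after its values were seen. The count was 1 without control replicate 1, 2 without heat stress replicate 1 or 3 or with the replicate block, and 3 with DESeq2 or the length and GC correction.

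In liver 0 of 7 HSF1 genes were higher and 2 lower, and all 7 had a negative log2 fold change, though Hspa1b was at 0.46 without both muscle libraries, against -0.26 with all 6; it was named after its values were seen. Hsph1, a co-chaperone of HSP70, had 37.3, 48.2 and 43.1 CPM in control and 17.0, 14.2 and 18.5 CPM in heat stress (log2 fold change -1.37 ± 0.18 SE, adjusted p = 0.0678, edgeR; adjusted p = 1.4e-07, DESeq2). Hsp90aa1, inducible HSP90, had 162, 221 and 205 CPM in control and 66.9, 81.9 and 50.2 CPM in heat stress (-1.56 ± 0.23 SE, adjusted p = 0.107, edgeR; adjusted p = 2.5e-08, DESeq2). Both were called by edgeR without the muscle libraries and with the length and GC correction. With the suffix covariate Hsph1 was called (adjusted p = 0.0271, edgeR) and Hsp90aa1 was not (adjusted p = 0.101, edgeR). The list had 2 called genes without control replicate 1, with all 12 libraries in 1 fit or without the filter, and 0 without any other single library. Hspb1 had -0.47 with overlapping groups, and -0.81 without the muscle libraries (unadjusted p = 0.00707, edgeR), where 3 of 7 were lower, as without heat stress replicate 2. Hsf1 had -0.27 in brain and -0.18 in liver. Its brain value was -0.18 without control replicate 3 and -0.41 without control replicate 2 (unadjusted p = 0.0126, edgeR). Its liver value was -0.03 without heat stress replicate 1 and -0.30 without heat stress replicate 2. Hmox1 had positive log2 fold changes of 0.26 in brain and 0.50 in liver beside the HSF1 genes.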

How the data were processed

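Polyadenylated RNA from brain and liver had been sequenced from stranded libraries. The authors deposited raw read counts per gene symbol, without normalization. Their processing notes name Trimmomatic 0.39, HISAT2 2.2.1, featureCounts of Subread 2.0.1 and mm10, while another passage of the methods names Tophat2 and HTSeq; which holds for these counts, the annotation release and the use of strand are not given in the sources used here. The authors' own tables of fold changes and p-values were not used.

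Counts were analysed in R 4.3.3 with edgeR 4.0.16 (TMM, filterByExpr with a minimum count of 10 and total of 15, robust quasi-likelihood test, Benjamini-Hochberg adjustment over all genes tested), within each tissue and in a fit of 4 groups for the tissue contrasts. Standard errors are the log2 fold change over the root of F. CPM within a tissue uses TMM factors of its 6 libraries, so it differs from the CPM scaled over all 12. DESeq2 1.42.0, other scalings, filters, covariates and left-out libraries were alternatives. Brain and liver libraries of the same number may come from the same mouse, which the labels do not say: the correlations of their deviations were 0.262, 0.226 and 0.105 for control. For heat stress they were 0.050, -0.15 and -0.018. The fit of 4 groups treats them as independent, and the number as a block (mouse as replicate block) changed no call of a member. Exon lengths, GC content and positions came from GENCODE M21 on GRCm38. Procedures were tested on simulated counts with changes larger than the heat effects of the tested members. This does not show how well smaller changes would be found. The paper gives 3 animals in each group, and the labels give 3 separate samples per group without naming the mice. P-values therefore measure only the spread between these samples, which may be partly technical. An exact permutation test of 3 against 3 cannot go below p = 0.1.

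The members and all gene lists were chosen with earlier results of these data known. Named genes are the members, 9 regulators, Atf4, Hsf1 and, of each other list and tissue, the 3 genes of smallest unadjusted p. Limits for counts of 0 take 3 counts of the library total and cover counting error only.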

Additional observations from a re-analysis of the deposited data

How the results depend on the processing

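No call of a member changed under any alternative run: 0 members passed the adjusted p of 0.05 in brain, in liver and in the difference of the tissues, and 9 passed between control tissues. Replicate numbers did not pair control with heat stress: same-numbered control and heat stress libraries correlated over genes at -0.29, 0.19 and -0.20 in brain and -0.58, -0.51 and -0.09 in liver. With the replicate block the member medians were 0.02 in brain and 0.13 in liver, and no member was called; with the length and GC correction too the brain median was -0.014. The brain count at an unadjusted p under 0.05 was 0 higher with DESeq2, with all 12 libraries in a fit, with the length and GC correction, and with that correction and the replicate block, which gave 1 lower (Nfe2l2). Leaving out single libraries gave 0 to 1 higher and 0 to 1 lower. In liver it was 1 higher with all 12 libraries (Hmox1) and 0 to 1 without single libraries; the liver median ranged from 0.078 to 0.20 there and was 0.18 without both muscle libraries. For the difference of the tissues it was 1 higher without the filter (G6pdx), and 0 to 1 higher and 0 to 1 lower without single replicates.

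Signs turned for members near 0, and also for the liver minus brain difference of Slc7a11, whose value with all replicates was -3.22. In brain, Gclm was -0.030 with the length and GC correction (-0.0315 with the block too) and Slc7a11 -0.024 with both; without single libraries Slc7a11 ran from -0.27 to 0.24, Gclm from -0.053 to 0.079 and Txnrd1 from -0.12 to 0.0067. In liver, Txnrd1 was -0.0096 with the suffix 2nd as a covariate, and without single libraries it ran from -0.018 to 0.10 and Gclc from -0.10 to 0.21. The liver minus brain difference of Gclc was 0.0010 with DESeq2's size factors and 0.022 without the filter. Without single replicates that difference ran from -0.21 to 0.18 for Gclc, -0.064 to 0.30 for Gclm, -0.026 to 0.17 for Txnrd1, -0.40 to 0.115 for Nqo1 and -3.92 to 2.50 for Slc7a11. Between control tissues Srxn1 was -0.021 with DESeq2's size factors, -0.0052 with upper quartile factors, -0.027 with DESeq2 and -0.092 to 0.14 without single replicates. The cause was not tested. Counts of 30 to 77 limit G6pdx in liver and 57 to 71 limit Hmox1 in brain. Settings for the other 64 targets were added after the data were seen.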
